A study of Mus musculus with 11 samples.

Results

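The 30 genes described here encode the enzymes that build cholesterol and the proteins that control them. Members were taken by gene symbol for their place in the mevalonate and sterol pathway. Each symbol matched 1 of the 55401 rows of the count table, and all 30 were among the 20390 genes left by a filter on low counts. They comprise 8 genes of the mevalonate arm, 3 that make squalene and lanosterol, 9 that turn lanosterol into cholesterol, 5 SREBP factors and their control proteins, and 5 other sterol and fatty acid genes.

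The libraries came from microglia, the resident macrophages of the brain, sorted alive as CD11b+/CD45+ cells, a gate that blood neutrophils and monocytes also pass, from the brains of C57BL/6 mice aged 9 to 10 months. There were 3 Tyrobp-/-;Inpp5d+/-;NLGF libraries (the compound mutant), 2 Tyrobp-/-;NLGF libraries, 3 Inpp5d+/-;NLGF libraries and 3 NLGF libraries. NLGF is a knock-in of the mouse App gene that carries a humanised amyloid-beta sequence with familial Alzheimer mutations and deposits amyloid, so every group, the NLGF mice included, is an amyloid model and no mice without amyloid were analysed here. Tyrobp encodes DAP12, the signalling adaptor of TREM2 and related receptors, and Inpp5d encodes SHIP1, a lipid phosphatase that opposes PI3-kinase signals. The labels do not say how the alleles were made, or which animals or litters each library came from, so the p values reflect only variation among these libraries, which may be technical.

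Cholesterol is built from acetyl-CoA through mevalonate, farnesyl diphosphate, squalene and lanosterol. The transcription factor SREBP2, encoded by Srebf2, sits in the endoplasmic reticulum membrane, where SCAP escorts it to the Golgi for cleavage when sterols are scarce and INSIG proteins hold it back when sterols are plentiful. Cleaved SREBP2 raises transcription of nearly every enzyme of the pathway and of Srebf2 and Insig1 themselves. Brain cells depend largely on cholesterol made within the brain, and microglia also take up sterol from myelin and cell debris.

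Library totals ran from 29490567 to 66637052 counts. Tyrobp was at 3.22 to 8.94 read counts scaled to library size (CPM) in the 5 Tyrobp-/- libraries, against 1952 to 2560 CPM in the 6 others. Inpp5d was at 190 to 280 CPM in the 6 Inpp5d+/- libraries, against 205 to 449 CPM in the 5 others, and NLGF replicate 2 (205 CPM) lay within the Inpp5d+/- range. The 12 microglial identity markers summed to 55595 to 59878 CPM in Tyrobp-/- libraries, against 51058 to 61283 CPM in the others. Compound mutant replicate 1 stood apart from the other 10 libraries, with a summed CPM of 35.9 for 10 neuronal markers, against at most 10.9 in any other library. All 5 Tyrobp-/- libraries carry lower sample numbers in their titles than the 6 others, so Tyrobp genotype and any handling that followed those numbers cannot be told apart.

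Averaged over both Inpp5d backgrounds, 13 of the 30 genes were lower in the 5 Tyrobp-/- libraries than in the 6 others at an adjusted p below 0.05, against a background of 2.66% of all tested genes called lower, and none was higher (background 2.08%), with Lbr the one higher gene at an unadjusted p below 0.05. All adjusted p values here are Benjamini-Hochberg values over the 20390 genes from edgeR's quasi-likelihood test. The 13 were Hmgcs1, Pmvk, Idi1, Fdps, Fdft1, Sqle, Cyp51, Msmo1, Sc5d, Dhcr7, Srebf2, Insig1 and Stard4, with log2 fold changes between -2.27 and -0.68. The median log2 fold change was -0.62 over the 30 genes and 0.02 over all tested genes. Because whole sorted samples were sequenced, fewer cells of a type and less RNA per cell cannot be told apart.

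In 12 of the 30 genes every Tyrobp-/- library lay below every other library, a separation seen in 3.47% of all tested genes, and in none did every Tyrobp-/- library lie above (2.7% of all tested genes). Pmvk was the called gene whose ranges overlapped. The count of 13 was 7 without Tyrobp-/-;NLGF replicate 2, 9 without Tyrobp-/-;NLGF replicate 1, 12 without compound mutant replicate 1, and 11 or 12 without any other single library. It was 6 without the 2 libraries richest in the neutrophil transcript S100a8 (Tyrobp-/-;NLGF replicate 1 and compound mutant replicate 2). It was 2 with neutrophil marker level as a covariate. Over all genes edgeR made 968 calls in either direction in the main fit and 51 with that covariate. It made 669 to 774 when 1 library outside Tyrobp-/-;NLGF was left out. Its calls over all genes fell further without 1 of the 2 Tyrobp-/-;NLGF libraries, or without the 2 libraries richest in S100a8. Those fits left 1 library in Tyrobp-/-;NLGF. DESeq2 called 14 of the 30 lower and limma-voom 13, and each also called Lbr higher. In either direction over all genes DESeq2 made 2367 calls and limma-voom 1170, against 968 by edgeR.

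**Figure D1:**
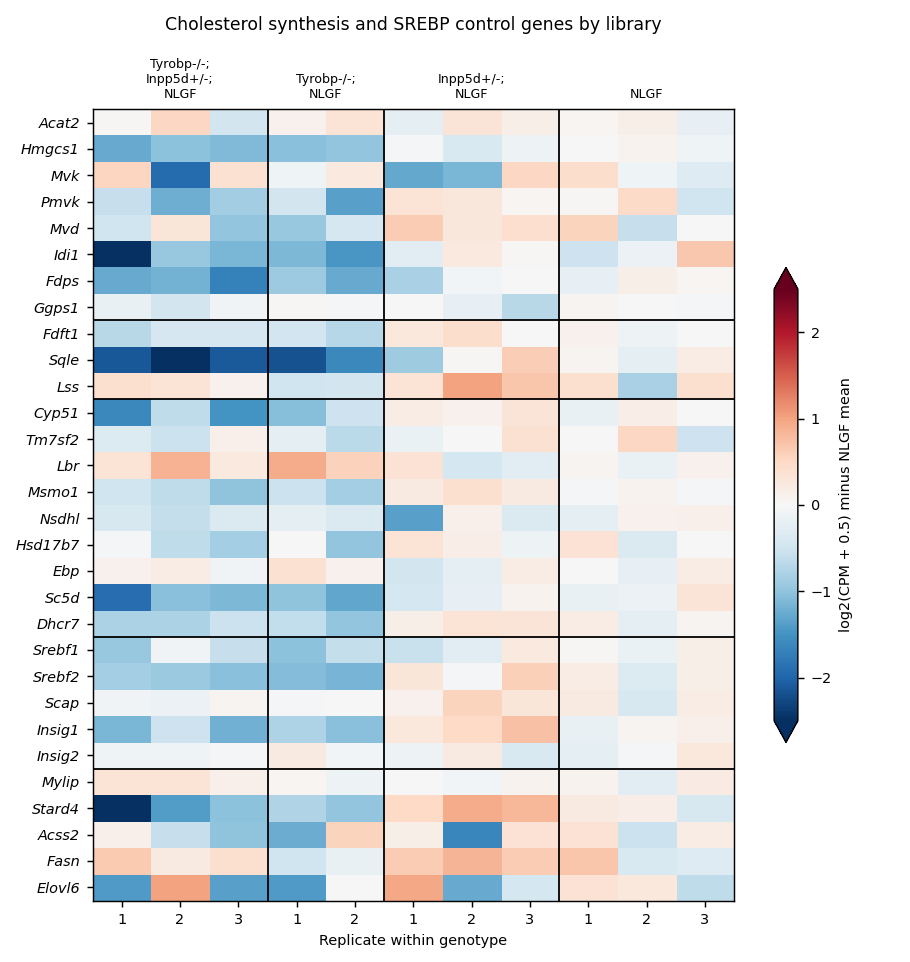
Heat map of the 30 genes (rows, grouped by pathway step from top to bottom) in the 11 libraries (columns, grouped by genotype); colour gives log2(CPM + 0.5) minus the mean of the 3 NLGF libraries. Blue cells (lower than NLGF) fill the 5 Tyrobp-/- columns at Hmgcs1, Idi1, Fdps, Sqle, Cyp51, Msmo1, Sc5d, Dhcr7, Srebf2, Insig1 and Stard4, while Ggps1, Ebp, Insig2 and Mylip stay pale there.

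Promoter windows running from 250 bases before to 50 bases after the annotated start were available from RefSeq (GRCm38.p6) for 26 of the 30 genes. The windows of Hmgcs1, Msmo1, Srebf2 and Insig1 are shown because these genes were lower in Tyrobp-/- libraries and stand for the first steps of the pathway, its later steps and its control. Both strands were searched for TCACNCCAC, letters within the sterol regulatory element that SREBP factors bind, and for CCAAT, the core bound by the cofactor NF-Y, and matches are in capitals (ATTGG is CCAAT on the other strand).
Hmgcs1, chr13:119690101-119690400, plus strand: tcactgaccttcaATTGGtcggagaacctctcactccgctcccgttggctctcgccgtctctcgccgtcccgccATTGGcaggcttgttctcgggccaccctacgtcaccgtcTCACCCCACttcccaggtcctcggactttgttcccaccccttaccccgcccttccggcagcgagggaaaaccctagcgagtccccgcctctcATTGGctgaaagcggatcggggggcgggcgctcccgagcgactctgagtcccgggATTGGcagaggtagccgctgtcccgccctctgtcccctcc
Msmo1, chr8:64733529-64733828, minus strand: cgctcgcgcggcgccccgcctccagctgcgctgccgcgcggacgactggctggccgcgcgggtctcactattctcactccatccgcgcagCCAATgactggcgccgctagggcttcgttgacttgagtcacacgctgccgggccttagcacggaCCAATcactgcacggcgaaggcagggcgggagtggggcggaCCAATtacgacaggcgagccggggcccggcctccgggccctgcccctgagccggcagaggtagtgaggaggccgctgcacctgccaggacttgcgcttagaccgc
Srebf2, chr15:82147019-82147318, plus strand: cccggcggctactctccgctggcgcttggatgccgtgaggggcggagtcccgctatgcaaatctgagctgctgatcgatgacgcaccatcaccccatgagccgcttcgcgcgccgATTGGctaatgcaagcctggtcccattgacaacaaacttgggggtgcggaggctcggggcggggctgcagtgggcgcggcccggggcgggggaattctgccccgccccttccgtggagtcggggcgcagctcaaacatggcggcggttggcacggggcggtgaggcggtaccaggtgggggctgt
Insig1, chr5:28071162-28071461, plus strand: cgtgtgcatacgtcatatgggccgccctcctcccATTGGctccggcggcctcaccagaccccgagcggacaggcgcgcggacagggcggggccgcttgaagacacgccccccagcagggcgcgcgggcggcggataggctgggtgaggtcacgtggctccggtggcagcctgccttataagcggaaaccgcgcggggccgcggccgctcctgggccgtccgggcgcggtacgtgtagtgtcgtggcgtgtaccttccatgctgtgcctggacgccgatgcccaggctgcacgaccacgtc
The Hmgcs1 window held the sterol motif, as TCACCCCAC 137 bases before the start, along with 4 matches to CCAAT. The Msmo1 window held 3 matches to CCAAT, and those of Srebf2 and Insig1 held 1 each. Only exact matches were searched, so a window without the sterol motif may still hold a variant of it. The Srebf2 window, for example, holds tcaccccat, which departs from the motif in its last letter and is not marked. Over the 34 windows of the 26 genes, CCAAT was found in 70.6%, against 37.4% of all 32851 windows in the table, and the sterol motif in 2.94%, against 1.24%. That 2.94% is 1 window, the Hmgcs1 window above, so it gives no measure of how common the motif is among these genes. At least 1 window with CCAAT was found for 9 of the 9 genes lower in Tyrobp-/- libraries that had a window, and for 14 of the other 17. The 4 genes without a window, Fdps, Fdft1, Sqle and Stard4, were all among the 13 lower genes, so these shares do not cover them. A match is a run of letters and not a measured binding site, and these motifs do not overlap in the windows shown.

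The mevalonate arm carries acetyl units to the isoprenoid farnesyl diphosphate, and 4 of its 8 genes were lower in Tyrobp-/- libraries, with a median log2 fold change of -0.89. Hmgcs1 (chr13:119690379-119708260, GRCm38) encodes the cytosolic synthase that makes HMG-CoA. It was at 22.2, 26.1 and 24.7 CPM in compound mutant libraries and 25.6 and 26.6 CPM in Tyrobp-/-;NLGF libraries, against 51.9, 41.0 and 49.3 CPM in Inpp5d+/-;NLGF libraries and 54.2, 57.1 and 49.6 CPM in NLGF libraries. The 5 Tyrobp-/- values lay close together and well below the 6 others, which they did not overlap. The averaged log2 fold change was -1.0 (SE 0.10, edgeR adjusted p = 0.000887), and Hmgcs1 passed whichever single library was left out. It shares 557 exon bases with Gm48342 on the other strand, which had 4088 counts over the 11 libraries, against 21274 for Hmgcs1, and changed by -0.83 (edgeR adjusted p = 0.0313).

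Idi1 (chr13:8885501-8892451), the isomerase that makes the allylic building block of isoprenoids, was at 3.48, 11.4 and 9.89 CPM in compound mutant libraries and 10.0 and 7.86 CPM in Tyrobp-/-;NLGF libraries, against 18.8, 26.6 and 22.9 CPM in Inpp5d+/-;NLGF libraries and 15.5, 20.2 and 36.3 CPM in NLGF libraries. Compound mutant replicate 1 was the lowest, NLGF replicate 3 the highest, and the Tyrobp-/- and other libraries did not overlap. Its log2 fold change was -1.44 (SE 0.34, edgeR adjusted p = 0.0423), and the call was lost when any 1 of 8 libraries was left out, with an adjusted p of up to 0.171. Of the 50-base words in Idi1 exons, 25.3% also occur in other genes, most of them in Gm13502, whose log2 fold change was -1.61, so the counts of the pair are uncertain.

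Fdps (chr3:89093588-89101959) makes farnesyl diphosphate, the branch point to sterols, prenylated proteins and dolichol. Its values were 12.2, 12.8 and 8.97 CPM in compound mutant libraries and 15.8 and 12.1 CPM in Tyrobp-/-;NLGF libraries, against 16.8, 28.5 and 29.5 CPM in Inpp5d+/-;NLGF libraries and 25.9, 33.3 and 30.9 CPM in NLGF libraries. The groups did not overlap, though Inpp5d+/-;NLGF replicate 1 lay only just above the highest Tyrobp-/- library. The log2 fold change was -1.12 (SE 0.19, edgeR adjusted p = 0.0115), and the adjusted p was 0.0692 without Tyrobp-/-;NLGF replicate 2. Fdps shares 1124 exon bases with Gm43738 on the same strand, which changed by -0.91 (edgeR adjusted p = 0.0125), and reads in the shared stretch cannot be told apart.

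Pmvk (chr3:89454541-89469013), which phosphorylates phosphomevalonate, was at 10.0, 6.30 and 8.16 CPM in compound mutant libraries and 10.97 and 5.66 CPM in Tyrobp-/-;NLGF libraries, against 19.4, 18.7 and 15.8 CPM in Inpp5d+/-;NLGF libraries and 15.6, 21.5 and 10.7 CPM in NLGF libraries. NLGF replicate 3 fell inside the Tyrobp-/- range. The log2 fold change of -1.03 (SE 0.25) had an edgeR adjusted p of 0.0475, and the call was lost when any 1 of 10 libraries was left out, NLGF replicate 3 being the exception.

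The other 4 genes of the arm did not pass. Mvd, the decarboxylase that makes isopentenyl diphosphate, averaged 6.02 ± 2.60 CPM in Tyrobp-/- libraries and 10.1 ± 2.85 CPM in the others (SD, n = 5 and n = 6), a log2 fold change of -0.79 (edgeR adjusted p = 0.199). Mevalonate kinase, Mvk, spread from 1.42 to 10.1 CPM in Tyrobp-/- libraries and from 2.49 to 9.88 CPM in the others, and its 95% interval for the log2 fold change ran from -0.95 to 1.42. Ggps1, which diverts farnesyl diphosphate to geranylgeranyl diphosphate for protein prenylation, averaged 57.6 ± 7.204 CPM in Tyrobp-/- libraries and 58.2 ± 10.0 CPM in the others, with an interval from -0.28 to 0.30. The cytosolic thiolase Acat2 averaged 21.8 ± 5.41 CPM in Tyrobp-/- libraries and 20.4 ± 3.12 CPM in the others. Its interval ran from -0.33 to 0.55, and 39.1% of its 50-base words are shared with Acat3.

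Squalene and lanosterol are made by 3 enzymes, of which 2 were lower in Tyrobp-/- libraries. Sqle (chr15:59315077-59331192) encodes squalene epoxidase, an oxygen-dependent and rate-limiting step. It was at 4.22, 1.99 and 4.26 CPM in compound mutant libraries and 3.98 and 6.16 CPM in Tyrobp-/-;NLGF libraries, against 10.5, 20.4 and 30.8 CPM in Inpp5d+/-;NLGF libraries and 20.7, 16.8 and 22.5 CPM in NLGF libraries. The Inpp5d+/-;NLGF values were the most spread, yet even their lowest lay above all 5 Tyrobp-/- libraries. Sqle had the largest fall of the 30 genes, with a log2 fold change of -2.27 (SE 0.33, edgeR adjusted p = 0.0055) and a mean in Tyrobp-/- libraries of 20.3% of that in the others. It passed whichever single library was left out.

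Fdft1 (chr14:63145150-63179578), squalene synthase, was at 32.8, 40.0 and 40.1 CPM in compound mutant libraries and 38.3 and 32.6 CPM in Tyrobp-/-;NLGF libraries, against 64.1, 73.1 and 52.9 CPM in Inpp5d+/-;NLGF libraries and 57.9, 49.0 and 54.2 CPM in NLGF libraries. The groups did not overlap, and the log2 fold change was -0.68 (SE 0.12, edgeR adjusted p = 0.0123, or 0.0718 without Tyrobp-/-;NLGF replicate 2). Fdft1 is uncertain, because 774 of its exon bases (18.8%) lie opposite Ctsb, the gene of cathepsin B. Ctsb had 3811123 counts over the 11 libraries, against 27026 for Fdft1, and was itself lower in Tyrobp-/- libraries by a log2 fold change of -0.61 (edgeR adjusted p = 0.00151). These libraries do not mark strand, so how many Fdft1 counts came from Ctsb cannot be told apart. Lss, which closes the ring to lanosterol, averaged 6.01 ± 1.85 CPM in Tyrobp-/- libraries and 8.17 ± 3.04 CPM in the others (SD, n = 5 and n = 6), a log2 fold change of -0.54 that did not pass (edgeR adjusted p = 0.311).

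**Figure D2:**
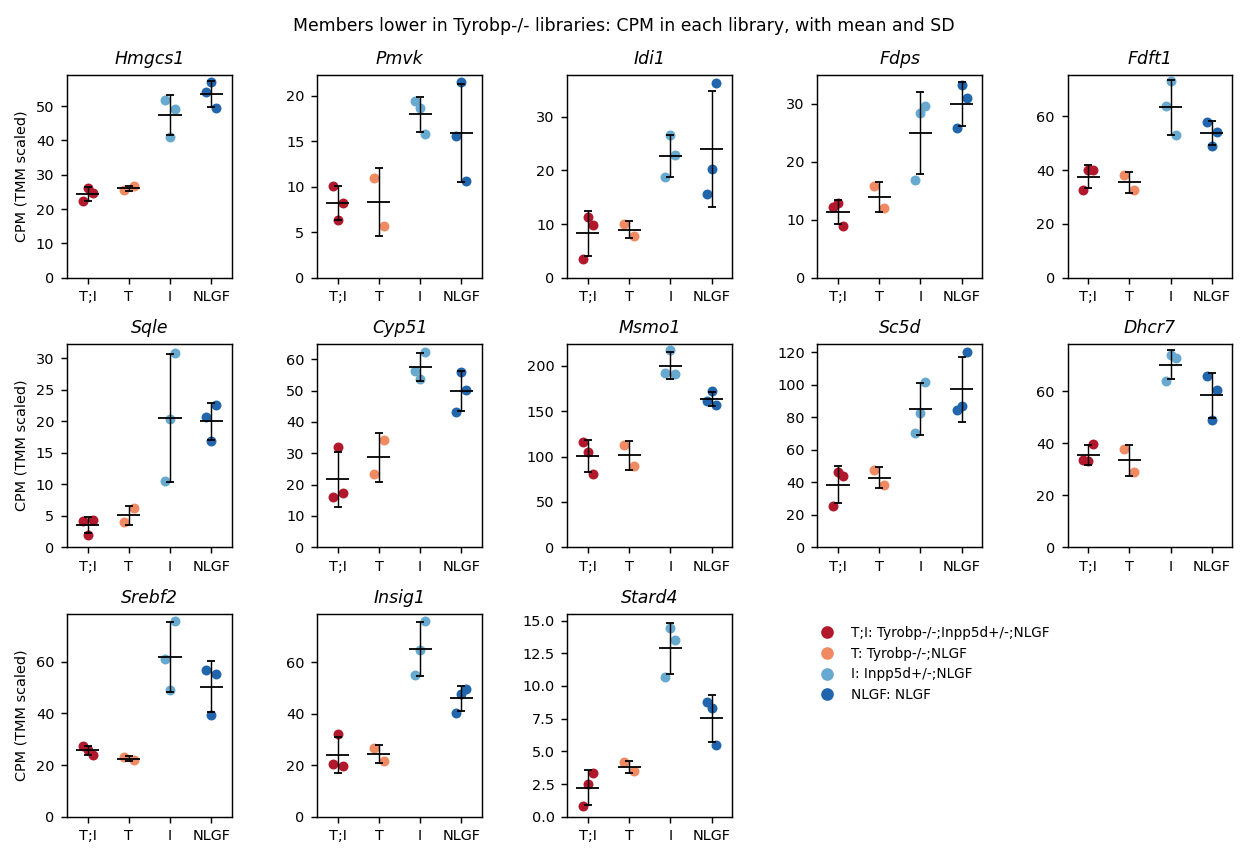
CPM of the 13 genes lower in Tyrobp-/- libraries, 1 panel a gene, with 1 point per library and the mean and SD of each genotype; each vertical axis starts at 0. In every panel except Pmvk the highest Tyrobp-/- point lies below the lowest point of the other genotypes.

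Of the 9 genes between lanosterol and cholesterol, 4 were lower in Tyrobp-/- libraries. Cyp51 (chr5:4081145-4104746), the lanosterol demethylase, was at 16.0, 31.9 and 17.2 CPM in compound mutant libraries and 23.3 and 34.3 CPM in Tyrobp-/-;NLGF libraries, against 56.2, 53.6 and 62.4 CPM in Inpp5d+/-;NLGF libraries and 43.1, 55.9 and 50.1 CPM in NLGF libraries. Compound mutant replicates 1 and 3 were the lowest, and no Tyrobp-/- library reached the others. The log2 fold change was -1.10 (SE 0.20, edgeR adjusted p = 0.0159, or 0.0884 without Tyrobp-/-;NLGF replicate 1).

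Msmo1 (chr8:64718139-64733792), the C4-methyl oxidase, was the most abundant called gene per length. It was at 116, 105 and 80.9 CPM in compound mutant libraries and 112 and 89.9 CPM in Tyrobp-/-;NLGF libraries, against 192, 217 and 191 CPM in Inpp5d+/-;NLGF libraries and 161, 172 and 157 CPM in NLGF libraries. The Tyrobp-/- libraries were clear of the others, and Inpp5d+/-;NLGF libraries were the highest. Its log2 fold change was -0.84 (SE 0.11, edgeR adjusted p = 0.00308), and no single library decided the call.

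Sc5d and Dhcr7 act near the end of the pathway. Sc5d (chr9:42251595-42264256), the lathosterol desaturase, was at 25.3, 46.4 and 43.6 CPM in compound mutant libraries and 47.2 and 38.5 CPM in Tyrobp-/-;NLGF libraries, against 70.2, 82.8 and 102 CPM in Inpp5d+/-;NLGF libraries and 84.4, 87.1 and 120.2 CPM in NLGF libraries. The groups did not overlap, with a log2 fold change of -1.16 (SE 0.19, edgeR adjusted p = 0.00953, or 0.0584 without Tyrobp-/-;NLGF replicate 2). Dhcr7 (chr7:143823145-143848410), the 7-dehydrocholesterol reductase, was at 33.3, 33.1 and 39.7 CPM in compound mutant libraries and 37.6 and 29.1 CPM in Tyrobp-/-;NLGF libraries, against 63.9, 73.9 and 72.8 CPM in Inpp5d+/-;NLGF libraries and 65.8, 48.8 and 60.3 CPM in NLGF libraries. NLGF replicate 2 came nearest to the Tyrobp-/- libraries without reaching them, and the log2 fold change was -0.90 (SE 0.12, edgeR adjusted p = 0.00349, with no single library deciding the call).

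The 5 enzymes between them did not pass, and they differed in sign. Lbr, an inner nuclear membrane protein that also reduces the sterol C14 bond, had the smallest adjusted p of the 7 genes with positive estimates. It ran from 66.6 to 106 CPM in Tyrobp-/- libraries, against 41.2 to 72.0 CPM in the others. Inpp5d+/-;NLGF replicate 1 lay within the Tyrobp-/- range, and the log2 fold change of 0.67 missed the threshold (edgeR adjusted p = 0.0624). The estimate was 0.47 without the 2 libraries richest in S100a8, and Lbr shares 440 exon bases with Dnah14 on the other strand, which changed by 0.86 (edgeR adjusted p = 0.14).

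Tm7sf2, which carries out the same reduction as Lbr, averaged 8.75 ± 2.03 CPM in Tyrobp-/- libraries and 11.5 ± 3.07 CPM in the others (SD, n = 5 and n = 6), a log2 fold change of -0.42. Hsd17b7, the keto-sterol reductase, had a log2 fold change of -0.55 and a 95% interval from -1.14 to 0.05. Nsdhl, its partner in removing the C4 methyl groups, had -0.19 with an interval from -0.71 to 0.34. Ebp, the sterol isomerase, averaged 126 ± 15.01 CPM in Tyrobp-/- libraries and 109 ± 19.1 CPM in the others, with an interval from -0.06 to 0.53.

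Among the SREBP factors and their control proteins, Srebf2 and Insig1 were lower in Tyrobp-/- libraries, while Srebf1, Scap and Insig2 did not pass. Srebf2 (chr15:82147181-82205379) was at 27.4, 25.8 and 23.8 CPM in compound mutant libraries and 23.2 and 21.8 CPM in Tyrobp-/-;NLGF libraries, against 61.1, 48.8 and 75.8 CPM in Inpp5d+/-;NLGF libraries and 56.8, 39.2 and 55.1 CPM in NLGF libraries. The 5 Tyrobp-/- values fell within a few CPM of each other and below all 6 others, which were more spread. The log2 fold change was -1.22 (SE 0.15, edgeR adjusted p = 0.00219), and Srebf2 passed whichever single library was left out. Its transcript shares no exon bases with another gene of the table.

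Insig1 (chr5:28071363-28078662) encodes a protein that holds SCAP and SREBP2 in the endoplasmic reticulum when sterols are plentiful. It was at 20.3, 32.0 and 19.6 CPM in compound mutant libraries and 26.7 and 21.9 CPM in Tyrobp-/-;NLGF libraries, against 55.1, 65.0 and 76.0 CPM in Inpp5d+/-;NLGF libraries and 40.4, 47.8 and 49.8 CPM in NLGF libraries. All 3 Inpp5d+/-;NLGF libraries lay above the 3 NLGF libraries, and both sets above every Tyrobp-/- library. The log2 fold change was -1.18 (SE 0.16, edgeR adjusted p = 0.00406). Insig1 was the one gene of the 30 that passed under all 22 alternative settings tried for this contrast, with an adjusted p of at most 0.031.

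Insig2, the paralogue that SREBP2 does not induce in the same way, was at 65.1, 64.6 and 68.7 CPM in compound mutant libraries and 81.5 and 66.8 CPM in Tyrobp-/-;NLGF libraries, against 64.3, 81.7 and 53.6 CPM in Inpp5d+/-;NLGF libraries and 59.8, 67.9 and 83.9 CPM in NLGF libraries. All groups overlapped, and the log2 fold change of 0.03 had a 95% interval from -0.27 to 0.33 (edgeR adjusted p = 0.95). Scap, the escort protein, was at 33.6, 32.6 and 37.9 CPM in compound mutant libraries and 35.4 and 36.0 CPM in Tyrobp-/-;NLGF libraries, against 38.9, 52.9 and 44.4 CPM in Inpp5d+/-;NLGF libraries and 41.9, 27.1 and 40.8 CPM in NLGF libraries. NLGF replicate 2 was the lowest library of all, and the interval ran from -0.53 to 0.10 (edgeR adjusted p = 0.477).

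Srebf1 encodes SREBP1, whose SREBP1c form drives fatty acid synthesis and is itself induced by oxysterol-activated LXR. It was at 32.6, 59.5 and 42.4 CPM in compound mutant libraries and 30.9 and 42.0 CPM in Tyrobp-/-;NLGF libraries, against 43.2, 52.1 and 75.3 CPM in Inpp5d+/-;NLGF libraries and 64.4, 56.4 and 69.9 CPM in NLGF libraries. Compound mutant replicate 2 lay among the libraries with Tyrobp, and the log2 fold change of -0.57 (95% interval from -1.01 to -0.13) did not pass (edgeR adjusted p = 0.147). The table counts whole genes, so the SREBP1a and SREBP1c transcripts were not separated.

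**Figure D3:**
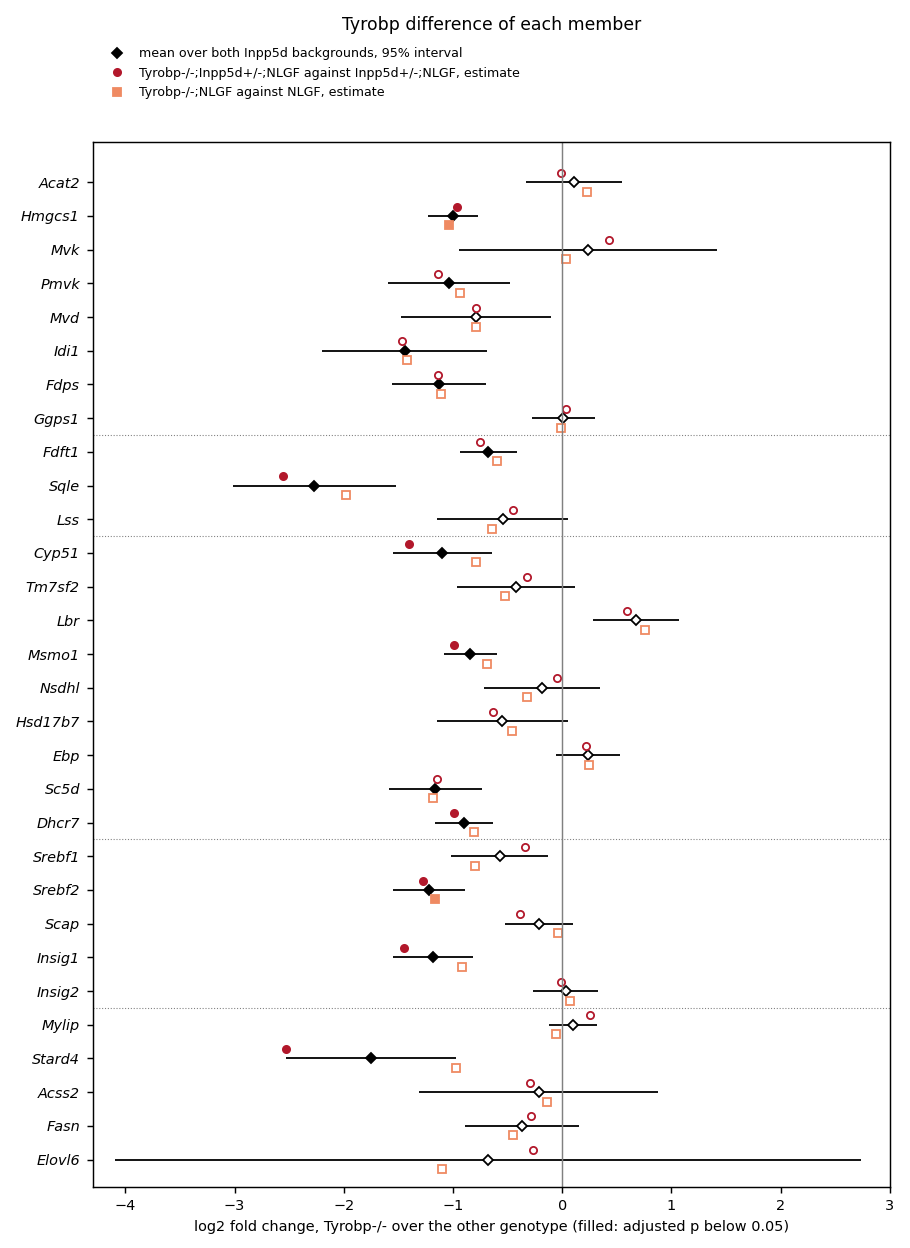
Log2 fold change of each of the 30 genes with Tyrobp absent over Tyrobp present (horizontal axis), in pathway order from top to bottom. Black diamonds with 95% intervals give the mean over both Inpp5d backgrounds, red circles Tyrobp-/-;Inpp5d+/-;NLGF against Inpp5d+/-;NLGF and orange squares Tyrobp-/-;NLGF against NLGF; filled symbols passed an adjusted p of 0.05, and 23 genes lie left of 0 in both backgrounds.

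Of the 5 other sterol and fatty acid genes, Stard4 was lower in Tyrobp-/- libraries. Stard4 encodes a soluble carrier that moves cholesterol between membranes and is a known SREBP2 target. It was at 0.81, 2.52 and 3.38 CPM in compound mutant libraries and 4.16 and 3.496 CPM in Tyrobp-/-;NLGF libraries, against 10.7, 14.4 and 13.5 CPM in Inpp5d+/-;NLGF libraries and 8.78, 8.34 and 5.49 CPM in NLGF libraries. The Tyrobp-/- libraries lay below all others, and the 3 Inpp5d+/-;NLGF libraries were the highest. The log2 fold change was -1.75 (SE 0.35, edgeR adjusted p = 0.0219), and the adjusted p was 0.101 without Tyrobp-/-;NLGF replicate 1 and 0.111 without replicate 2.

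Mylip encodes IDOL, an LXR-induced ubiquitin ligase that removes lipoprotein receptors. It averaged 180 ± 24.7 CPM in Tyrobp-/- libraries and 163 ± 18.3 CPM in the others (SD, n = 5 and n = 6), with a 95% interval for the log2 fold change from -0.12 to 0.32. Fasn, the fatty acid synthase, averaged 10.5 ± 3.33 CPM in Tyrobp-/- libraries and 12.7 ± 4.38 CPM in the others, with an interval from -0.89 to 0.16. Acss2, which makes acetyl-CoA from acetate, had an interval from -1.31 to 0.88. The elongase Elovl6 had 0 counts in compound mutant replicate 1 and Tyrobp-/-;NLGF replicate 1, which allows up to 0.0565 and 0.0597 CPM, and at most 2.18 CPM in any library, and its interval from -4.10 to 2.73 sets no useful limit.

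Levels per length give a different ranking of the genes. In NLGF libraries Mylip (50.4 ± 8.55 RPKM) and Ebp (49.6 ± 6.68 RPKM) were the most abundant and did not differ beyond their spread (SD, n = 3). Msmo1 followed at 26.6 ± 1.31 RPKM, then Insig2 at 20.3 ± 3.53 RPKM and Sc5d at 19.98 ± 4.10 RPKM, also within their spread. Hmgcs1 stood at 11.7 ± 0.83 RPKM, Srebf2 at 7.01 ± 1.35 RPKM and Sqle at 3.61 ± 0.53 RPKM. Lss (0.59 ± 0.26 RPKM) and Elovl6 (0.14 ± 0.07 RPKM) were the lowest. Summed over the 30 genes, CPM was 971 to 1110 in Tyrobp-/- libraries, against 1257 to 1476 in the others.

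The pairwise comparisons ask whether the Tyrobp difference was present on each Inpp5d background. In the compound mutant against Inpp5d+/-;NLGF, 8 of the 30 genes were lower (background 0.633%) and none higher, namely Hmgcs1, Sqle, Cyp51, Msmo1, Dhcr7, Srebf2, Insig1 and Stard4, with a median log2 fold change of -0.54 over the 30. In Tyrobp-/-;NLGF against NLGF, Hmgcs1 (-1.04, edgeR adjusted p = 0.0156) and Srebf2 (-1.16, edgeR adjusted p = 0.0484) were lower (2 of 30, background 0.608%), with a median of -0.67. These comparisons share no library, and 23 of the 30 genes had negative estimates in both, 3 positive estimates in both and 4 opposite signs. In the compound mutant against NLGF, 4 of the 30 were lower (background 0.633%), namely Hmgcs1, Fdps, Sqle and Sc5d, with a median of -0.50. That comparison shares its libraries with the others.

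The pairwise counts were sensitive to single libraries, as were the calls over all genes. Over all genes the compound mutant against Inpp5d+/-;NLGF gave 183 calls in the main fit. It gave 66, 79 and 176 without compound mutant replicates 1, 2 and 3, and 79 and 90 without Inpp5d+/-;NLGF replicates 2 and 3. For the compound mutant against Inpp5d+/-;NLGF, the count of 8 was 2, 3 and 5 without compound mutant replicates 1, 2 and 3, and 2 and 1 without Inpp5d+/-;NLGF replicates 2 and 3, and it was 6 when any 1 of the other 6 libraries was left out. For Tyrobp-/-;NLGF against NLGF, leaving out either Tyrobp-/-;NLGF library left 1 in that group, and calls fell among the 30 and over all genes. The Srebf2 call was also lost when any 1 of 6 libraries of the other groups was left out, and the Hmgcs1 call without NLGF replicate 2. Over all genes this contrast gave 176 calls in the main fit and 88 to 201 without 1 library of the other groups. For the compound mutant against NLGF, the count of 4 was 1 when any 1 of 8 libraries was left out, 2 without Inpp5d+/-;NLGF replicate 3, and 3 without compound mutant replicate 2 or Inpp5d+/-;NLGF replicate 1. Over all genes that contrast gave 178 calls in the main fit and 62 to 152 when 1 library outside Tyrobp-/-;NLGF was left out. In that contrast Hmgcs1 passed whichever single library was left out. DESeq2 called 13 of the 30 lower in the compound mutant against Inpp5d+/-;NLGF, 9 in Tyrobp-/-;NLGF against NLGF and 12 in the compound mutant against NLGF. Its calls over all genes, in that order, were 1195, 1156 and 1147, against 183, 176 and 178 by edgeR.

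Losing 1 copy of Inpp5d did not change any of the 30 genes detectably. In Inpp5d+/-;NLGF against NLGF, edgeR (background 0%), DESeq2 (37 calls over all genes) and limma-voom (0 calls over all genes) each called 0 of 30. By edgeR 1 gene of the 30 had an unadjusted p below 0.05, and the median log2 fold change was 0.03. That gene was Insig1, with a log2 fold change of 0.51 (95% interval from 0.03 to 0.98, edgeR adjusted p = 0.952) and all 3 Inpp5d+/-;NLGF libraries above the 3 NLGF libraries. Hmgcs1 had an interval from -0.48 to 0.12, Srebf2 from -0.13 to 0.72 and Sqle from -0.88 to 0.95. Over all tested genes edgeR called none, and 951 had an unadjusted p below 0.05.

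With Tyrobp absent, the compound mutant against Tyrobp-/-;NLGF likewise gave 0 of 30 by edgeR, DESeq2 and limma-voom, with a median log2 fold change of -0.07 by edgeR. Over all genes edgeR called 2 (0.00981% in either direction), DESeq2 65 and limma-voom 0. The unadjusted p was below 0.05 for Fasn alone, at 10.9 to 14.8 CPM in the compound mutant, against 6.45 to 8.08 CPM in Tyrobp-/-;NLGF libraries (log2 fold change 0.80, edgeR adjusted p = 1), and over all tested genes for 831. Srebf2 had an interval from -0.29 to 0.67, Hmgcs1 from -0.44 to 0.23 and Insig1 from -0.55 to 0.51.

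The interaction tests whether the Tyrobp difference depended on the Inpp5d genotype. No gene of the 30 passed by edgeR (background 0%), DESeq2 (43 calls over all genes) or limma-voom (0 calls over all genes). Over all tested genes 958 had an unadjusted p below 0.05, and of the 30 only Stard4 did (0.0416), with a fall of -2.53 on the Inpp5d+/- background and -0.98 with both copies, a difference of -1.55 (95% interval from -3.03 to -0.07, edgeR adjusted p = 1). The interaction estimate was 0.08 for Hmgcs1 (interval from -0.37 to 0.53), -0.11 for Srebf2 (from -0.75 to 0.53), -0.52 for Insig1 (from -1.24 to 0.19) and -0.58 for Sqle (from -1.96 to 0.80). These intervals leave room for sizeable differences, so the genes are not shown to respond alike on both backgrounds.

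In a list of 18 tested genes of cholesterol synthesis, transport and SREBP2 control outside the 30, 2 were lower and 1 higher in Tyrobp-/- libraries (backgrounds 2.66% and 2.08%), with a median log2 fold change of -0.13. Soat1, which esterifies cholesterol for storage, averaged 175 ± 22.2 CPM in Tyrobp-/- libraries and 267 ± 22.1 CPM in the others (SD, n = 5 and n = 6), with no overlap and a log2 fold change of -0.64 (SE 0.08, edgeR adjusted p = 0.00338). Abcg1, a sterol exporter induced by LXR, averaged 329 ± 21.9 CPM in Tyrobp-/- libraries and 225 ± 29.1 CPM in the others, again with no overlap, a log2 fold change of 0.56 (SE 0.10, edgeR adjusted p = 0.0139). Npc2, the lysosomal sterol carrier, did not pass (-0.27, edgeR adjusted p = 0.0677).

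In a list of 15 tested fatty acid synthesis and SREBP1 genes outside the 30, 3 were lower and none higher (the same backgrounds of 2.66% and 2.08%), with a median of -0.24. Scd2, a stearoyl-CoA desaturase, averaged 63.7 ± 6.34 CPM in Tyrobp-/- libraries and 212 ± 43.8 CPM in the others, with no overlap (log2 fold change -1.72, SE 0.13, edgeR adjusted p = 0.000182). The mitochondrial citrate carrier Slc25a1 (-0.62, edgeR adjusted p = 0.0202) and the elongase Elovl5 (-0.52, edgeR adjusted p = 0.021) were also lower. Acly, which makes cytosolic acetyl-CoA from citrate, did not pass (-0.24, edgeR adjusted p = 0.114).

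Markers of other cells moved with the Tyrobp genotype. Summed over 12 neutrophil markers, CPM was 256 to 19197 in Tyrobp-/- libraries, against 0.74 to 233.2 in the others. By edgeR 8 of the 12 were higher (background 2.08% of all tested genes), led by S100a8 and Ngp. Over 12 monocyte markers summed CPM was 139 to 2294 in Tyrobp-/- libraries, against 29.98 to 115 in the others. Of these 12, 5 were higher (the same background), with Chil3 and Hp the most abundant. No marker of either list was at 0 in all libraries. Compound mutant replicate 1 had the least neutrophil signal of the 5 Tyrobp-/- libraries (256 CPM, against 233.2 CPM in the highest NLGF library), and its mean log2 difference from NLGF over the 30 sterol genes was -0.64, against -0.55 in Tyrobp-/-;NLGF replicate 1, which had the most (19197 CPM). That difference was -0.64 in compound mutant replicate 3 (2285.5 CPM), -0.55 in Tyrobp-/-;NLGF replicate 2 (4438 CPM) and -0.50 in compound mutant replicate 2 (9904 CPM). How the 2 measures relate across these libraries was not tested.

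With the neutrophil level as a covariate the median log2 fold change of the 30 genes was -0.73 and Sc5d and Insig1 passed, and without the 2 libraries richest in S100a8 the median was -0.79 and Hmgcs1, Cyp51, Msmo1, Dhcr7, Srebf2 and Insig1 passed. Astrocytes and oligodendrocytes make much of the brain's cholesterol, and the summed levels of their markers overlapped between genotypes. The 10 astrocyte markers summed to 232.2 to 276 CPM in Tyrobp-/- libraries, against 178 to 273 CPM in the others. Most of that was Slc1a3, with means of 242 and 216 CPM. The 10 oligodendrocyte markers summed to 166 to 206 CPM in Tyrobp-/- libraries, against 164 to 199.7 CPM in the others. Most of that was Cnp (means of 101 and 99.9 CPM) and Mbp (47.1 and 61.8 CPM). These sums therefore say little about the other markers or about the content of either cell type. For the marker counts that follow, the backgrounds over all tested genes were 2.08% higher and 2.66% lower in Tyrobp-/- libraries. By edgeR none of the astrocyte markers passed, and 2 of the 6 tested oligodendrocyte markers, Mag and Mog, were higher in Tyrobp-/- libraries. Mag was at 27.2 to 36.6 CPM in Tyrobp-/- libraries, against 13.1 to 20.5 CPM in the others, and Mog at 0.020 to 1.64 CPM, against 0 counts in each of the others. The part of the oligodendrocyte markers in the sterol gene result was not tested. Of the tested neuronal, border-associated macrophage and erythroid markers none passed, while of 6 endothelial markers 1 was lower and 1 higher and of 6 lymphocyte markers 1 was lower. With the astrocyte level as a covariate, 9 of the 30 passed, against 581 calls over all genes. Markers of disease-associated microglia, the state that depends on TREM2 signalling, were lower in Tyrobp-/- libraries for 13 of 16 genes, with a median of -2.55 on the log2 scale and a summed CPM of 9558 to 12290 in Tyrobp-/- libraries, against 17075 to 21213 in the others. None of the 16 was at 0 in all libraries. Of 12 microglial identity markers 3 were higher and none lower by edgeR (7 had an unadjusted p below 0.05), with a median of 0.12. The 3 were Tmem119, P2ry13 and Sparc, which, like Mag and Mog, are named after their values were seen. The part of these microglial markers in the sterol gene result was not tested.

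**Figure D4:**
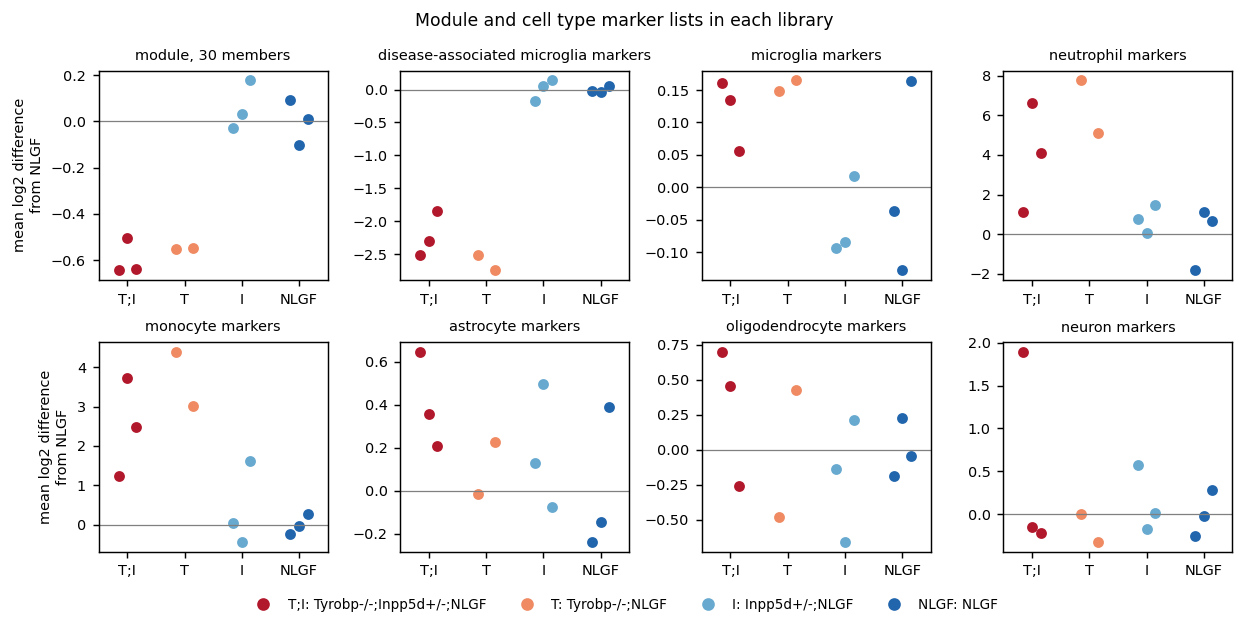
Mean log2(CPM + 0.5) difference from the NLGF mean over the 30 sterol genes and over 7 marker lists, 1 point per library, by genotype (T;I is Tyrobp-/-;Inpp5d+/-;NLGF, T is Tyrobp-/-;NLGF, I is Inpp5d+/-;NLGF); the vertical scales differ between panels. The 5 Tyrobp-/- libraries lie between -0.64 and -0.50 for the sterol genes, with the other 6 between -0.10 and 0.18, and the neutrophil, monocyte and disease-associated lists also separate by Tyrobp genotype or nearly so.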

How the data were processed

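RNA of sorted microglia was sequenced in 11 libraries, made from cDNA with SMART-Seq v4 chemistry per the labels' protocols; it leaves strand unmarked. STAR 2.7.3a and featureCounts 1.6.4, with the builds GRCm38.p6 and mm10, are named in the submitters' processing notes. The authors deposited raw read counts per gene, with no normalization. Which annotation was counted, how multi-mapping reads were handled and which strand option was set is not given in the sources used here. The deposited gene positions equal those of GENCODE vM21 for all of the 30 genes except Fdft1.

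Groups came from the genotype label. Replicate numbers follow sample order and pair nothing. Genes were kept with filterByExpr (minimum count 10, minimum total 15), library sizes were scaled by TMM, and 1 coefficient per genotype was fitted over all 11 libraries by quasi-likelihood (glmQLFit and glmQLFTest of edgeR 4.0.16, R 4.3.3). Adjusted p values cover all 20390 tested genes in a comparison, with a threshold of 0.05. The averaged Tyrobp difference is the mean of the compound mutant against Inpp5d+/-;NLGF and Tyrobp-/-;NLGF against NLGF. CPM and RPKM (per kilobase of the table's gene length) use TMM sizes. The procedure was checked on simulated counts. A floor of 3 counts in a library equals 0.0477 to 0.1 CPM, a limit for counting error alone, because PCR copies were not marked by molecular identifiers.

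Alternatives were DESeq2 1.42.0, limma-voom (limma 3.58.1), 1 surrogate variable (sva 3.50.0), RLE and upper-quartile scaling, other filters, a threshold of 0.1, marker covariates, fits of the compared groups alone, an additive model and leaving out libraries. A count limited to genes with no shared exons was added after seeing the data.

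The 30 genes and the lists were chosen with earlier results of these data known. Genes that passed in any comparison, the SREBP factors with their control proteins and the gene of smallest p in each step are given per library, and the rest by means and intervals. From each other list the genes of smallest p (up to 4), and from the marker lists the 2 most abundant genes, are named. Some list members are not reported here.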

Additional observations from a re-analysis of the deposited data

How the results depend on the processing

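Leaving out 1 library at a time gave 7 to 12 of the 30 genes for the averaged Tyrobp difference, 1 to 6 for the compound mutant against Inpp5d+/-;NLGF, 0 to 2 for Tyrobp-/-;NLGF against NLGF and 1 to 3 for the compound mutant against NLGF. In that order the median log2 fold change ranged from -0.73 to -0.54, -0.70 to -0.49, -0.72 to -0.55 and -0.62 to -0.39, and the interaction median from -0.19 to 0.031. Over all genes edgeR made 968, 183, 176 and 178 calls in the main fits in the same order. It made 669 to 774, 66 to 183, 88 to 201 and 62 to 152 when 1 library outside Tyrobp-/-;NLGF was left out. With the neutrophil covariate it made 51, 42, 14 and 36. Its calls over all genes also fell in each of these contrasts without the 2 libraries richest in S100a8, which left 1 library in Tyrobp-/-;NLGF. Counts of the 30 genes other than the main 13, 8, 2 and 4 that moved by over 1.5 times were as follows. With the neutrophil covariate they were 2, 2, 0 and 1, without the 2 libraries richest in S100a8 6, 2, 0 and 2. For the 3 pairwise contrasts in that order, DESeq2 gave 13, 9 and 12 (1195, 1156 and 1147 over all genes). The astrocyte covariate gave 0, 1 and 0 (66, 166 and 33 over all genes). Fits of the compared groups alone gave 1, 0 and 1 (104, 77 and 56 over all genes). A surrogate variable gave 1 each for Tyrobp-/-;NLGF and the compound mutant against NLGF (101 and 65 over all genes). For the same contrasts a threshold of 0.1 gave 4 and 9 (380 and 339 over all genes). No filter gave 1 for Tyrobp-/-;NLGF against NLGF (147 over all genes). Among the 17 genes with no shared exons, 8 passed in the averaged difference, 6 in the compound mutant against Inpp5d+/-;NLGF, 1 in Tyrobp-/-;NLGF against NLGF and 2 in the compound mutant against NLGF.

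Medians moved by more than the replicate SD to -0.73 (neutrophil covariate) and -0.79 (without the S100a8-rich libraries) for the averaged difference. For the compound mutant against Inpp5d+/-;NLGF they were -0.72 (limma-voom), -0.69 (neutrophil covariate) and -0.70 (without the S100a8-rich libraries), for the compound mutant against NLGF -0.61 (surrogate variable) and -0.61 (without the S100a8-rich libraries), and for Inpp5d+/-;NLGF against NLGF 0.13 (astrocyte covariate). Signs turned for 7 genes that did not pass. With the neutrophil covariate the averaged log2 fold change was -0.0021 for Acat2, -0.080 for Insig2, 0.41 for Acss2 and 0.48 for Fasn. With the astrocyte covariate it was -0.019 for Ggps1, -0.068 for Insig2 and 0.27 for Elovl6. Without the S100a8-rich libraries it was -0.034 for Insig2 and 0.16 for Acss2. Ggps1 was at -0.0010 with upper-quartile scaling and -0.063 with a surrogate variable. Leaving out 1 library gave -0.035 to 0.22 for Acat2, -0.072 to 0.092 for Ggps1, -0.35 to 0.0034 for Nsdhl, -0.044 to 0.12 for Insig2, -0.87 to 0.12 for Acss2 and -4.39 to 0.16 for Elovl6. The cause of these changes was not tested. Lbr, positive throughout, passed in 5 of 22 settings. Scaling moved the median of all genes by less than 0.1 on the log2 scale. No paired analysis was possible because the labels give groups no shared replicate numbers. Tyrobp-/-;NLGF had 2 libraries, which limits the precision of every contrast that uses it, and the effect of depth was not tested.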
